A study of Mus musculus with 4 samples.

Results

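Olfactory receptor genes form the largest gene family of the mouse, and 96 of them had enough counts to be measured in testes of mice given busulfan with or without ursolic acid (ULA). The members were chosen by their measured counts: a gene with an Olfr symbol and a number was kept where its raw counts over the 4 libraries summed to at least 20. The table held 1107 such genes, of which 534 had no count in any library, 477 had between 1 and 19 counts and 96 passed. The floor was set on the sum without regard to group, but a gene with counts in one group alone can reach it. Olfr63, with 37 counts in ULA testes and 1 in BUS testes, passed through ULA, as did Olfr1278, with 33 and 1. Olfr24, Olfr46, Olfr315, Olfr362, Olfr371, Olfr981, Olfr1413, Olfr1444, Olfr1446, Olfr1495 and Olfr1509 also reached the floor in ULA testes but not in BUS testes. All of these genes rose in the test below, and Olfr920 and Olfr1251, which fell, reached the floor in BUS testes alone. The differences of all these genes were thus in part fixed by the floor. Members that did not pass the test could also reach the floor in 1 group alone. Olfr1277 did so in ULA testes (0 and 28 counts, against 1 and 2 in BUS testes). Olfr1250 did so in BUS testes (30 and 10 counts, against 8 and 1 in ULA testes). The signs, shares and medians given below for all 96 members include such genes. The groups were testes of ICR mice that received busulfan 30 mg/kg and then ULA 50 mg/kg (ULA, n = 2 libraries) and testes of ICR mice that received busulfan 30 mg/kg and then vehicle without ULA (BUS, n = 2 libraries). Busulfan, an alkylating drug that depletes dividing germ cells, was thus given to every animal, once, by intraperitoneal injection, so no untreated testis is part of the comparison. The males were 8 weeks old when bought, and ULA, a plant triterpene, was suspended in corn oil with 5% DMSO and given daily by gavage for 4 weeks, beginning 2 weeks after busulfan. By the study's methods, the BUS mice were given this vehicle in an equivalent dose. The methods speak of both biological and technical replicates, and no label ties a library to an animal, so p-values measure the spread between these libraries.

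Olfactory receptors are G protein-coupled receptors with a coding sequence that lies in a single exon. In the nose each sensory neuron expresses one allele of one receptor gene, and the receptor signals through the G protein subunit Gnal, adenylyl cyclase Adcy3 and cyclic nucleotide-gated channels. A small part of the family is also transcribed outside the nose, and testis was among the first tissues where this was seen; Olfr16, also called MOR23, is the receptor best known from mouse sperm. Most receptor genes sit in clusters of neighbours that arose by duplication, so that neighbours can be close in sequence.

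The hallmark of the family is a stretch of 10 codons at the end of the third membrane span, which begins with methionine in each gene given here. The stretches are given for Olfr16, for the 3 neighbouring genes on chromosome 14 that rose with ULA, for Olfr981, which rose too, and for the 3 members that fell, because the results turn on these genes. Capitals mark bases that differ from Olfr16, and all are read 5′ to 3′ from GENCODE M21 transcripts (GRCm38).
Olfr16: atgggttatgatcgttatgtggctatttgt
Olfr1507: atggCCtatgatcgCtatgtggcCatttgt
Olfr1508: atggCCtatgatcgCtatgtggctatttgt
Olfr1509: atggCGtatgatcgttatgtggctatCtgC
Olfr981: atggCttatgaCcgAtTCTtggcCatCtgC
Olfr873: atggCCtatgatAgAtTtgtggctGtCtgt
Olfr920: atggCCtatgatcgttatgtggctatCtgC
Olfr1251: atggCCtatgatcgCtatgtggcCatCtgt
Olfr1507 and Olfr1508 differed from Olfr16 at 4 and 3 of these bases and Olfr981 at 9, so a gene that rose could be near or far from Olfr16 here. Over the whole coding sequence Olfr1507 and Olfr1508 were 93.0% identical, whereas Olfr1509 was 65.4% identical to Olfr1508. Of the 96 members, 77 shared at least one word of 50 bases with a transcript of another gene, 25 shared 10% of their words or more and 19 shared none, with a median of 3.58%. No source used here says how reads that match several genes were counted. For the chromosome 14 genes the overlap was small: 3.02% of the words of Olfr1508, 6.09% of those of Olfr1507 and none of those of Olfr1509 occurred in another gene.

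The libraries held 16312898 and 15078828 counts in ULA testes and 18147335 and 18216380 counts in BUS testes, so 3 counts, the limit that a count of 0 allows, stood for 0.148 to 0.235 CPM, a library's counts relative to its total after scaling by the trimmed mean of M-values (TMM). The receptor genes were scarce at this depth. The median member had 40 counts summed over all libraries and the most abundant 735, and the highest level in any library was 3.39 CPM per kilobase of exon. The 96 members summed to 126 and 157 CPM in ULA testes, against 73.6 and 81.9 CPM in BUS testes. Both ULA libraries were above both BUS libraries. The other Olfr genes, which were below the floor, summed to 38.8 and 53.1 CPM in ULA testes and to 12.5 and 15.5 CPM in BUS testes, and 375 and 385 Olfr genes had a count in ULA testes, against 237 and 275 in BUS testes. With 2 libraries per group no test can give an exact two-sided permutation p below 0.333, so these sums are descriptions.

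**Figure D1:**
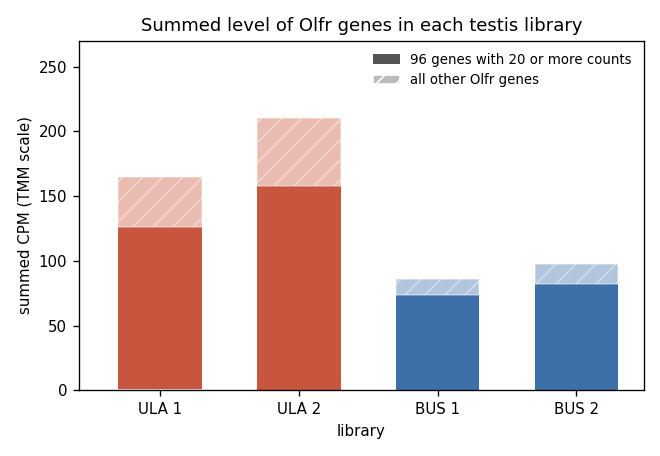
Summed level of Olfr genes in each testis library, in CPM on the TMM scale. Solid bars are the 96 members and hatched parts all other Olfr genes; both ULA libraries (126 and 157 CPM for the members) stand above both BUS libraries (73.6 and 81.9 CPM).

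Other properties of the libraries moved with these sums. The share of counts in protein-coding genes was 87.4% and 76.9% in ULA testes, against 96.9% and 96.3% in BUS testes, and the identifier ENSMUSG00000119584, which has no symbol in GENCODE M21, took 7.88% and 18.5% in ULA testes, against 0.00418% and 0.000637% in BUS testes. Lars2 was at 6992 and 15528 CPM in ULA testes and at 25.1 and 17.1 CPM in BUS testes. Malat1, a long non-coding RNA of the nucleus, was at 2298 and 1667 CPM in ULA testes and at 315 and 274 CPM in BUS testes. The 6 spermatid markers (such as the protamines Prm1 and Prm2) summed to 5442 and 8365 CPM in ULA testes, against 1914 and 2667 CPM in BUS testes. By the test below, 5 of the 6 were higher (83.3%, against 10.3% of all genes tested). The 6 Leydig cell markers summed to 806 and 548 CPM in ULA testes, against 7441 and 4991 CPM in BUS testes. All 6 were lower (100%, against 13.8% of all genes tested). None of these spermatid and Leydig cell markers was at 0 in every library. The part of cell composition and of RNA make-up in the receptor results was not tested. In whole testes, fewer cells of a type and less RNA per cell cannot be told apart.

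Of the 96 members, 20 rose and 3 fell with ULA (edgeR quasi-likelihood test over 25565 genes, Benjamini-Hochberg adjusted p under 0.05), and 73 did not pass. The share that rose, 20.8%, was read against 10.3% of all genes tested, and the share that fell, 3.13%, against 13.8%. The median log2 fold change of ULA over BUS was 0.98 for the members, with quartiles at 0.47 and 1.80, and 0.03 for all genes tested. The fitted change was positive for 82 members and negative for 14. In 59 members (61.5%) both ULA libraries lay above both BUS libraries, against 37.1% of all genes tested; in 8 members (8.33%) both lay below, against 35.8%, and in 29 the groups overlapped. Of the 96 members, 56 had their highest level in the second ULA library and 24 in the first. The median log2 fold change was 0.91 without the second ULA library, 0.78 without the first BUS library and 1.45 without the second BUS library. Fewer members passed without the second ULA library than with all libraries. With an offset for GC content and transcript length, 9 rose, 4 fell and the median was 0.40. The share of all genes called in that fit is not given here. The members were AT-rich, with a median GC content of 41.2% against 49.0% for all genes tested.

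**Figure D2:**
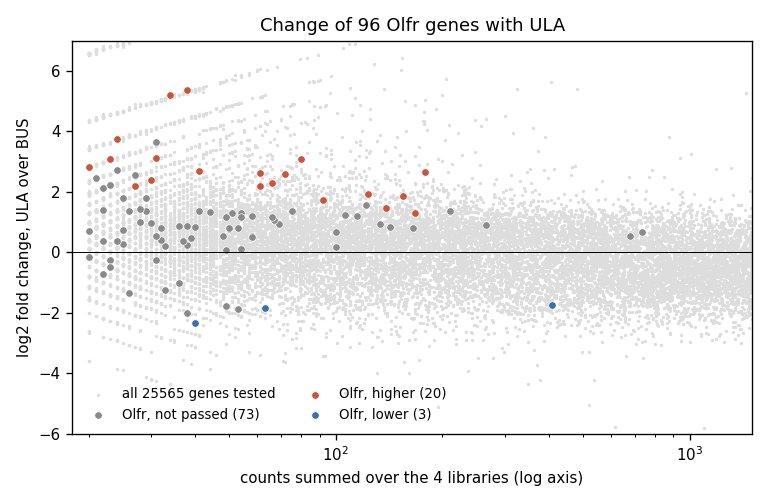
Log2 fold change of ULA over BUS (vertical axis) against the counts summed over the 4 libraries (log axis). Larger points are the 96 Olfr members by their edgeR call, with 20 higher, 3 lower and 73 that did not pass (darker grey). Small pale grey points are the genes tested. Both axes are cut, so not all 25565 genes tested are in view. Most points of the members lie above 0.

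Among the members that rose were 3 neighbours on chromosome 14, of which Olfr1508 and Olfr1509 had the lowest adjusted p-values of all members. Olfr1508 (chr14:52458829-52467495, minus strand) had 62 and 85 counts in ULA testes, against 12 and 20 counts in BUS testes. Its level was 5.20 ± 2.08 CPM in ULA testes and 0.813 ± 0.249 CPM in BUS testes (SD, n = 2 each), a log2 fold change of 2.65 (SE 0.47, edgeR adjusted p = 0.00889). Olfr1509 (chr14:52442990-52452574, plus strand) had 29 and 40 counts in ULA testes, against 4 and 7 counts in BUS testes, a log2 fold change of 3.07 (SE 0.57, edgeR adjusted p = 0.00959). Olfr1507 (chr14:52488791-52495749, minus strand) had 51 and 43 counts in ULA testes, against 19 and 26 counts in BUS testes, a log2 fold change of 1.48 (SE 0.41, edgeR adjusted p = 0.0310). No ULA library overlapped a BUS library for any of the 3 genes, although Olfr1507 lost its call with DESeq2, without either ULA library and with the GC and length offset. All 3 carry a receptor family name of the MOR244 group, which is known for the receptor of the sulphur odorant (methylthio)methanethiol.

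Rises of like size were found on other chromosomes. Olfr981 on chromosome 9 had 31 and 28 counts in ULA testes, against 4 and 9 counts in BUS testes, a log2 fold change of 2.58 (SE 0.54, edgeR adjusted p = 0.0130). Olfr981, Olfr1508 and Olfr1509 kept their calls under every alternative that tested them. Olfr1446 on chromosome 19 had 11 and 16 counts in ULA testes and 1 and 3 counts in BUS testes, a log2 fold change of 3.12 (edgeR adjusted p = 0.0206), and Olfr371 on chromosome 8 had 11 and 23 counts in ULA testes and 4 and 3 counts in BUS testes, a log2 fold change of 2.70 (edgeR adjusted p = 0.0267). Both were higher in both ULA libraries than in either BUS library, and both lost their call with DESeq2, with the GC and length offset and without the second ULA library, Olfr371 also with limma-voom.

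For 5 of the genes that rose, BUS testes held 3 counts or fewer in all, so the ratio is given with its exact counting interval at 95%, which covers counting error only. Olfr63 on chromosome 17 had 5 and 32 counts in ULA testes, against 0 and 1 count in BUS testes, a ratio of 49.2 (8.29 to 1990). Olfr1278 on chromosome 2 had 6 and 27 counts in ULA testes, against 1 and 0 counts in BUS testes, a ratio of 43.8 (7.34 to 1780). In both genes the second ULA library held most of the counts. Olfr46 on chromosome 7 had 8 and 14 counts in ULA testes, against 1 and 1 in BUS testes (ratio 14.6, 3.59 to 128), though 32.1% of its words occur in other genes. Olfr315 on chromosome 11 had 7 and 13 counts in ULA testes and 2 and 1 in BUS testes (ratio 8.86, 2.63 to 46.6), and Olfr307 on chromosome 7 had 8 and 9 counts in ULA testes and 2 and 1 in BUS testes (ratio 7.53, 2.18 to 40.1). None of these 5 genes passed without the second ULA library, and Olfr46, Olfr307 and Olfr315 did not pass with DESeq2. The remaining genes that rose were Olfr19, Olfr24, Olfr275, Olfr303, Olfr362, Olfr1279, Olfr1413, Olfr1444 and Olfr1495, with log2 fold changes between 1.29 (Olfr275) and 2.63 (Olfr24) and no overlap between the groups. Olfr275 lost its call under 8 of 17 alternatives, Olfr1495 under 7 of 16, Olfr1279 under 6 of 17 and the other 6 genes under 1 to 4.

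Olfr873, Olfr920 and Olfr1251 fell. Olfr873 (chr9:20298532-20303599, plus strand), the third most abundant member, had 54 and 24 counts in ULA testes, against 240 and 91 counts in BUS testes. Its level was 2.56 ± 0.96 CPM in ULA testes and 8.62 ± 5.83 CPM in BUS testes (SD, n = 2 each), a log2 fold change of -1.73 (SE 0.52, edgeR adjusted p = 0.0404). The BUS libraries differed widely from each other, yet both were above both ULA libraries. Olfr920 (chr9:38752299-38760117, plus strand) had 7 and 4 counts in ULA testes, against 27 and 25 counts in BUS testes, a log2 fold change of -1.82 (SE 0.53, edgeR adjusted p = 0.0369). Olfr1251 (chr2:89665870-89671936, minus strand) had 2 and 3 counts in ULA testes, against 24 and 11 counts in BUS testes, a log2 fold change of -2.35 (SE 0.75, edgeR adjusted p = 0.0479). None of these falls passed with upper-quartile scaling, in a fit of protein-coding genes alone, without the second ULA library or without the first BUS library.

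**Figure D3:**
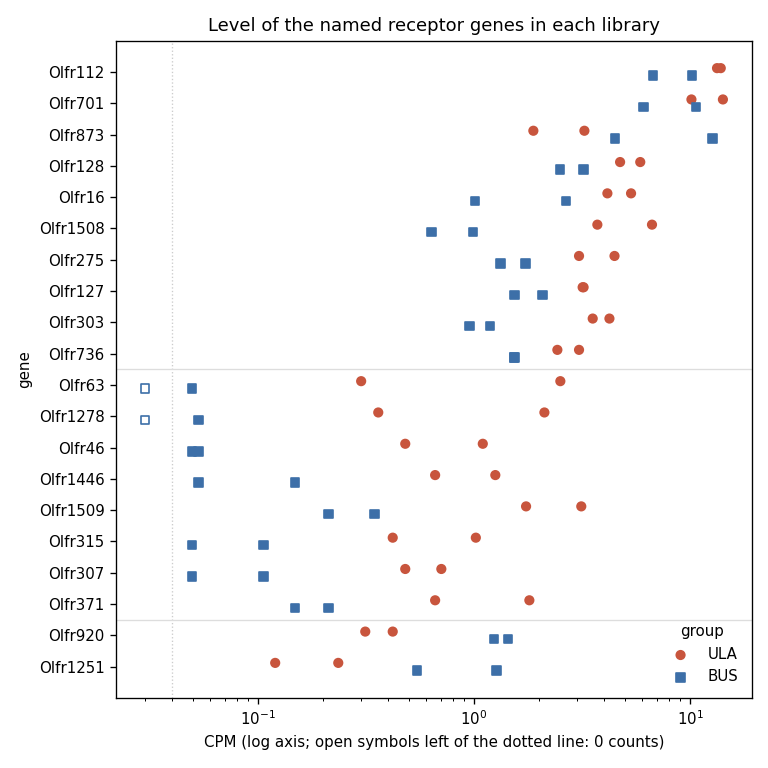
Level of 20 receptor genes in each library, in CPM on a log axis, with ULA as circles and BUS as squares. The upper block holds the 10 most abundant members, the middle block the 8 largest rises and the lower block the falls not already among them; ULA circles stand right of BUS squares for Olfr1508 and Olfr1509 and left of them for Olfr873, Olfr920 and Olfr1251.

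The pair of most abundant members did not pass the test. Olfr112 on chromosome 17 had 231 and 170 counts in ULA testes and 127 and 207 counts in BUS testes, a log2 fold change of 0.68 (edgeR adjusted p = 0.138). Olfr701 on chromosome 7 had 169 and 181 counts in ULA testes and 115 and 215 counts in BUS testes, a log2 fold change of 0.54 (edgeR adjusted p = 0.283). The levels overlapped between the groups for Olfr701, and for Olfr112 both ULA libraries, at 13.9 and 13.3 CPM, lay above both BUS libraries, at 6.74 and 10.2 CPM. Together these 2 genes held 17.5% to 19.1% of the member counts in ULA testes and 17.5% to 25.5% in BUS testes. Among the other abundant members, Olfr275 (log2 fold change 1.29) and Olfr303 (1.85) rose, and Olfr127 (0.82), Olfr128 (0.89) and Olfr736 (0.84) did not pass. Olfr127 and Olfr128 are 96.3% identical in coding sequence, so reads may have been split between them.

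Several receptors known outside the nose were measured. Olfr16 had 69 and 68 counts in ULA testes, against 19 and 54 counts in BUS testes, a log2 fold change of 1.35 (SE 0.48, edgeR adjusted p = 0.0672). Its ULA libraries were both above its BUS libraries, the change did not pass the test, and none of its words occur in another gene. Olfr78, a receptor for short-chain fatty acids and lactate in blood vessels and the carotid body, had 5 and 4 counts in ULA testes, against 34 and 10 counts in BUS testes (log2 fold change -1.87, edgeR adjusted p = 0.0895), and its exons overlap those of Olfr560. Olfr558, another receptor of blood vessels, had 6 and 0 counts in ULA testes and 13 and 7 counts in BUS testes (edgeR adjusted p = 0.301). Olfr544, a receptor for azelaic acid, had 5 and 15 counts in ULA testes and 0 and 4 counts in BUS testes (edgeR adjusted p = 0.0851), and Olfr1393, a receptor of the kidney tubule, had 4 and 17 counts in ULA testes and 9 and 19 counts in BUS testes (edgeR adjusted p = 0.943). Below the floor, Olfr15 had 6 and 6 counts in ULA testes and 0 and 2 counts in BUS testes, Olfr2, the octanal receptor I7, had 1 and 2 counts in ULA testes and none in BUS testes, Olfr17 and Olfr151 had 1 count each, and Olfr73 and Olfr160 had none.

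Mammalian receptors fall into class I, which resembles the receptors of fish, and class II. Of the 8 class I members (receptor family numbers up to 42) none passed the edgeR test, DESeq2 or limma-voom; at an unadjusted p under 0.05, 4 were higher and 1 was lower, and the median log2 fold change was 1.55. Of the 85 class II members 20 rose (23.5%, against 10.3% of all genes tested) and 3 fell (3.53%, against 13.8%), with a median of 0.94. At such shares a list of 8 genes can hold no call, so no difference between the classes is read from these counts. The share of all genes at an unadjusted p under 0.05 is not given here. The 3 others, Olfr16 among them, carry no such number. At the edge of the floor, Olfr221, Olfr307 and Olfr731 stood just inside with 20 counts and Olfr979 just outside with 19, followed by Olfr419, Olfr734 and Olfr976 with 18.

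The sign of the change was compared among members that lie near each other. With a gap of at most 100 kb the members formed 56 groups of neighbours, of which 24 held at least 2 members and 64 members in all. In 20 of the 24 groups every fitted change was positive, in 2 every change was negative and in 2 the signs were mixed. Because 82 of the 96 members were fitted upward, many groups of one sign would be found in any case. Olfr1277, Olfr1278, Olfr1279 and Olfr1280 on chromosome 2 were all fitted upward, and Olfr1278 and Olfr1279 passed the test. Olfr1277 had 0 and 28 counts in ULA testes and 1 and 2 in BUS testes, so its groups overlapped and its change rests on the second ULA library. Olfr1444 and Olfr1446 on chromosome 19 both rose. Olfr1250 stood beside Olfr1251 with 8 and 1 counts in ULA testes and 30 and 10 counts in BUS testes, but did not pass (edgeR adjusted p = 0.133), and the coding sequences of the pair are 80.8% identical. Around Olfr873 the signs differed: Olfr18, Olfr39 and Olfr872 had log2 fold changes of 0.96, 0.94 and 1.19, and none of these 3 passed.

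**Figure D4:**
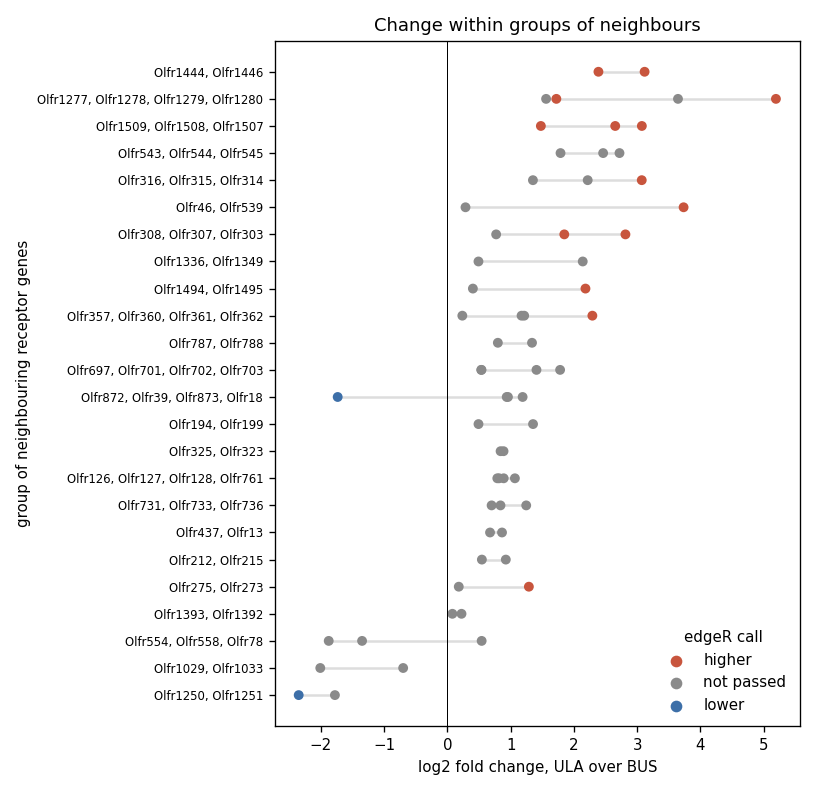
Log2 fold change of ULA over BUS for the members of the 24 groups of neighbouring receptor genes, one group per row and one point per gene, coloured by edgeR call. Points lie right of 0 in 20 of the groups, left of 0 in 2 and on both sides in 2, and all 3 genes of the Olfr1509, Olfr1508 and Olfr1507 group are called higher.

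Exons overlapped another gene in 10 members and 1 member lay inside another gene, which matters because no source used here states whether counting used the strand. Of the 85 members that shared no exon and lay inside no other gene, 19 rose and 3 fell, with a median log2 fold change of 1.16. Of the 11 others 1 rose, with a median of 0.38. Partial overlap of gene spans was not counted. Olfr1413, which rose and is among the 85, overlaps the span of the antisense gene 1700054K02Rik, which also rose (log2 fold change 2.88, edgeR adjusted p = 0.0479). Olfr19, the one that rose, had 47 and 44 counts in ULA testes and 11 and 21 counts in BUS testes, and overlaps Gm44932.

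The receptors were not the only class with this balance. Vomeronasal receptors, which detect pheromones, also leaned upward: of 16 tested Vmn1r genes 4 rose and none fell, with a median of 1.01, and of 26 tested Vmn2r genes 8 rose and 1 fell, with a median of 1.23. Of 1017 loci of the annotation class TEC, transcripts that still await experimental proof, 416 rose and 7 fell, with a median of 1.29, and of 132 sense intronic transcripts 52 rose and 1 fell, with a median of 1.14. Protein-coding genes leaned the other way, with 1027 risen and 3350 fallen of 17052. Among all genes with counts no higher than those of the most abundant member, 1784 rose (12.4%) and 1001 fell (6.94%) of 14428, with a median of 0.30, and among the protein-coding genes of that range 336 rose and 859 fell of 6504, with a median of -0.22. Whether these classes moved for the same reason was not tested.

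**Figure D5:**
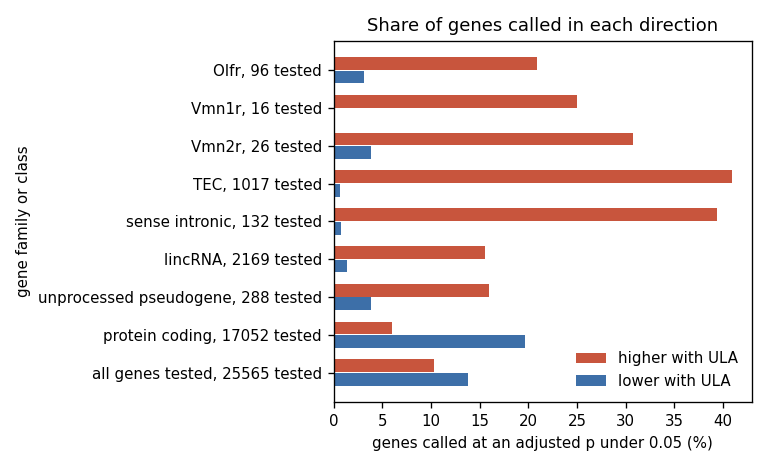
Share of genes called higher (red) or lower (blue) with ULA at an edgeR adjusted p under 0.05, for Olfr members and other families and annotation classes. The Olfr, Vmn1r, Vmn2r, TEC, sense intronic, lincRNA and unprocessed pseudogene rows have the longer red bar. The protein-coding row and the row of all genes tested have the longer blue bar.

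The genes of the olfactory signal were read beside the receptors. Of 15 tested genes of the signalling list 2 rose (13.3%, against 10.3% of all genes tested) and 1 fell (6.67%, against 13.8%), with a median log2 fold change of 0.16. Pde1c, a phosphodiesterase of olfactory cilia, was at 180 and 216 CPM in ULA testes and 82.2 and 130 CPM in BUS testes (log2 fold change 0.90, edgeR adjusted p = 0.0406). Ano2, a calcium-gated chloride channel, was at 4.75 and 9.26 CPM in ULA testes and 2.39 and 3.26 CPM in BUS testes (log2 fold change 1.30, edgeR adjusted p = 0.0496), and Arrb2, a beta-arrestin, fell by 1.39 on the log2 scale (edgeR adjusted p = 0.0430). Among 4 tested trafficking genes Reep1, which helps receptors reach the cell surface, was lower, with a log2 fold change of -1.18 (edgeR adjusted p = 0.0324), and among 11 regulators of receptor choice in olfactory neurons Atf5 and Ldb1 fell, with log2 fold changes of -2.04 and -1.56, which is 18.2% of the list against 13.8% of all genes tested, with a list median of -0.045. The markers of olfactory neurons were unevenly detected. S100a5 had no count, Stoml3 had none in ULA testes and 4 and 1 in BUS testes, Gng13 had 3 and 1 in ULA testes and 2 and 5 in BUS testes, Omp had 7 and 3 in ULA testes and 5 and 10 in BUS testes, and Cnga2 had 8 and 1 in ULA testes and 11 and 12 in BUS testes. Cnga4, a channel subunit, was well detected, with 58 and 65 counts in ULA testes and 55 and 90 in BUS testes. Of the 3 of 6 markers that were tested none passed with edgeR, at an unadjusted p under 0.05, with DESeq2 or with limma-voom.

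The region upstream of a start site could be shown for few members. A RefSeq window (GRCm38.p6) was listed for 78 members, but only 11 had a RefSeq start within 120 bases of the GENCODE start. The windows of Olfr1508 and Olfr46, which rose, and of Olfr701, an abundant member that did not pass, are given as the 250 bases before the RefSeq start. They are read 5′ to 3′, with capitals for motif letters found on either strand. The last 34 bases shown for Olfr1508 and the last 71 for Olfr46 lie inside the gene as annotated by GENCODE.
Olfr1508 (chr14:52467462-52467711, minus strand): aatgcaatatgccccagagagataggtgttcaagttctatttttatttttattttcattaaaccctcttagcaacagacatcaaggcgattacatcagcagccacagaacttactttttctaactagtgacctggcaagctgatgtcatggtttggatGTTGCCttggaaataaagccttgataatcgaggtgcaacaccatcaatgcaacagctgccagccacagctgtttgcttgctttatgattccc
Olfr46 (chr7:140601090-140601339, plus strand): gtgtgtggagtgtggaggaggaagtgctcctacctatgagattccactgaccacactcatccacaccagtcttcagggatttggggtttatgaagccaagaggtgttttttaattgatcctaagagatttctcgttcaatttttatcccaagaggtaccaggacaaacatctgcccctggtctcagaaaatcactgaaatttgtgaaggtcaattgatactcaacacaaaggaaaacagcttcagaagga
Olfr701 (chr7:106813879-106814128, plus strand): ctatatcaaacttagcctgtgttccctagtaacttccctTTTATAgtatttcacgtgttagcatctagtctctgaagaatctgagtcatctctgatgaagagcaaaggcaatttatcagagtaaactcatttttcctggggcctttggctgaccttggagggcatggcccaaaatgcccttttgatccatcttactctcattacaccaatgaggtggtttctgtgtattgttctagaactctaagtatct
The X-box core GTTGCC, bound by RFX factors of ciliated cells and spermatids, occurs in the window of Olfr1508, in 2 of the 11 windows and in 10.4% of all 32851 windows, and a TATA box (TATAAA), here on the minus strand of the window, in that of Olfr701, in 1 of 11 and in 12.4% of all. The other motifs searched were the CRE TGACGTCA (0 of 11, 1.55% of all), its shorter form TGACGT (1 of 11, 6.47%), which overlaps it, the homeodomain core TAATTA (2 of 11, 4.84%) and the EBF core TCCCNNGGG (1 of 11, 5.60%). These matches describe letters only.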

How the data were processed

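Testis RNA was measured in 2 ULA and 2 BUS libraries. The ULA columns carry a letter A after the number that no source explains, and were matched to the samples by group and number. The deposited values are raw counts for each Ensembl gene, which the authors made from reads trimmed with Fastp and mapped with STAR to GRCm38; FeatureCounts appears in the study's methods as the counter and RSEM 1.3.1 in the submitters' processing notes. Which tool made the counts, the strand setting and the handling of reads with several matches are not given in the sources used here, and each can change the counts of similar or overlapping receptors. Symbols came from GENCODE M21, which matched 52081 of 57010 identifiers. Genes with at least 20 summed counts were scaled by TMM and compared with edgeR 4.0.16 (quasi-likelihood test, R 4.3.3). This floor was used so that every member was tested; filterByExpr kept 62 of the 96. Either filter can admit a gene through 1 group. Log2 fold changes are model coefficients. Library totals ranged from 15078828 to 18216380 counts. No batch is given in the labels. The tests were tried on simulated counts with the same spread for all genes and few changed genes. That setting lacks the shift in library make-up seen here, so it does not vouch for these calls. Members and lists were chosen with earlier results of these data known. Named were the 10 most abundant members, the 8 largest rises and falls that passed without overlap, known receptors, genes at the floor and signalling genes that passed. Alternatives used DESeq2 1.42.0, limma 3.58.1 and, for the GC offset, mgcv 1.9.3.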

Additional observations from a re-analysis of the deposited data

How the results depend on the processing

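With the standard scaling 20 members rose and 3 fell, and RLE scaling, filterByExpr by group (15 and 3 of 62 members tested) and removal of ENSMUSG00000119584, Lars2, Gm15564 and all identifiers without a symbol left both counts within 1.5 times. Upper-quartile scaling gave 29 and 0 with a median log2 fold change of 1.30, library size alone 23 and 6, no filter beyond 1 count 27 and 6, at least 10 counts in every library 7 and 1 of 23 members, DESeq2 9 and 1, limma-voom 16 and 1, and protein-coding genes alone 20 and 0. The GC and length offset gave 9 higher and a median of 0.40. Members with at least 50 counts gave 11 higher, and an unadjusted p under 0.05 with a fold over 1.5 gave 38 and 5. A replicate block gave 31 higher and 6 lower, and the offset with the block 20 and 8 with a median of 0.43; deviations of same-numbered libraries correlated at 0.27 over 2 pairs, which does not establish a pairing. Leaving out one library gave 3 to 39 higher, 0 to 7 lower and a median of 0.78 to 1.45. The share of all genes called is not given for these alternatives. The counts of calls under them are therefore not read as results about the members. The median was above 0 under every setting here. For the named receptors, 331 alternative values kept their sign and their side of the threshold, 46 lost a call, 25 gained one and 12 changed sign, all of them in Olfr1393, Olfr221 and Olfr731, which did not pass the test. Olfr1393 had a log2 fold change of -0.18 with library size alone, -0.30 with limma-voom, -0.014 with the replicate block, -0.22 with the GC and length offset and -0.31 with both, and lay between -1.52 and 0.91 when one library was left out. Olfr221 was at 0.16 with upper-quartile scaling and 0.041 with protein-coding genes alone, and lay between -0.32 and 0.043 when one library was left out. Olfr731 was at -0.26 with the GC and length offset and -0.25 with the block added. The causes of these differences were not tested. With a median of 40 counts per member over 4 libraries, depth limits what can be called.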

Other observations

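The remaining chemosensory genes were scarce. Of 299 annotated Olfr pseudogenes 7 had enough counts to be tested, of which 1 rose, and the pseudogenes summed to 16.6 and 18.3 CPM in ULA testes, against 5.10 and 5.84 CPM in BUS testes. No trace amine receptor (Taar, 15 listed) and no formyl peptide receptor (Fpr, 8 listed) reached the floor, and of 38 taste receptors (Tas) 2 did and neither passed. The Vmn1r genes summed to 37.4 and 56.6 CPM in ULA testes, against 15.7 and 24.3 CPM in BUS testes, and the Vmn2r genes to 45.2 and 64.2 CPM in ULA testes, against 23.2 and 25.1 CPM in BUS testes. For each of these 3 families both ULA libraries lay above both BUS libraries.

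Among the cell type markers, 5 of 6 Sertoli cell (83.3%), 3 of 6 spermatogonia (50%), 3 of 4 peritubular (75%) and 2 of 4 endothelial markers (50%) fell and none rose. Of all genes tested, 13.8% fell and 10.3% rose. None of 6 spermatocyte and none of 4 macrophage markers passed the edgeR test, and at those shares lists this short can hold no call. At an unadjusted p under 0.05 no spermatocyte marker and 2 macrophage markers, both lower, passed, with DESeq2 0 and 1 and with limma-voom none of either. The shares of all genes that passed by these other rules are not given here. The 6 spermatocyte markers summed to 1104 and 921 CPM in ULA testes and to 643 and 855 CPM in BUS testes. The macrophage markers summed to 42.9 and 27.1 CPM in ULA testes and to 182 and 33.3 CPM in BUS testes, so the first BUS library stood apart. Markers of the epididymal epithelium summed to 0.180 and 0.784 CPM in ULA testes and to 0.159 and 0.0989 CPM in BUS testes, and none of the 6 reached the floor.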
